A study of Mus musculus with 3 samples.

Results

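S100b, Erbb3, Mbp, Pmp22, Lgi4, Foxd3, Fabp7 and Ptprz1 are genes of the Schwann cell and glial lineage. They were followed on Affymetrix arrays in melan-a NRAS61K cells. Melan-a is an immortalized melanocyte line from mouse, and this derivative carries the NRAS61K oncogene. The members were all probe sets whose only annotated gene is among these 8, which gave 19 probe sets, out of 18194 genes named on the array. The 3 groups were cells given doxycycline at 1 µg/ml for 6, 14 or 28 days, each with 1 array of total RNA and otherwise the same genotype, agent and medium. Doxycycline is an antibiotic often used to switch on an introduced gene, and the labels do not say what it controls here. An array for 10 days, which the treatment text names, and untreated cells were not analysed here. The labels do not say whether the line is a single clone or whether cultures were pooled.

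Schwann cells and melanocytes both descend from the neural crest, and Schwann cell precursors along nerves can give rise to melanocytes. The lineage depends on the transcription factor SOX10 and on neuregulin signals received by ERBB3 together with ERBB2. Mature Schwann cells wrap axons in myelin, whose proteins include PMP22 and MBP. Several of these genes, S100b, Erbb3, Sox10 and Foxd3 among them, are also known from melanocytes or melanoma, so their presence does not mark a glial cell by itself.

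The deposited values are on a scale read as log2, and each gene is represented by whichever of its probe sets had the highest 3-array mean. A level of a probe set cannot be set against that of another probe set. The background of an array is set by 94 probe sets of liver, pancreas, muscle, sperm and other foreign tissue genes, at their 90th percentile. In order of time it was 22.83, 22.61 and 22.81. Genes with log2 differences of at least 1, which is 2-fold, count as apart, and a comparison takes in genes that exceed the background on either array or both. Because every time point has 1 array, there is no replicate check, no test and no error between cultures, so each difference describes 2 arrays. The disagreement between probe sets of a gene had an SD of 0.30 (log2) in the step from day 6 to day 14. It was 0.24 in the step from day 14 to day 28 and 0.32 over the whole span. This SD comes from probe sets above the background on both arrays. It does not cover differences between cultures or an error shared by an array. In RNA from a whole culture, fewer cells of a kind and less RNA per cell cannot be told apart.

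On the 3 arrays, between 11124 and 11473 genes lay above the background, and hybridization controls averaged 27.45 to 27.53. The 3′ minus 5′ difference of the Actb control was 0.58, 0.76 and 0.75 in order of time, so day 6 differs from both later arrays in RNA quality measures as well, and the part of this in the results was not tested. The cell type on the label was checked against 11 melanocyte markers. The pigment genes Dct and Mlana lay above the background on all arrays, whereas Tyr, the tyrosinase gene, and Kit, a melanocyte growth factor receptor gene, did not on any, and Pmel lay close to it (23.07, 23.38 and 23.05 in order of time).

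Promoter sequence from RefSeq (GRCm38.p6) was held for 5 of the 8 genes. Those of S100b, Ptprz1 and Foxd3 are shown because S100b and Ptprz1 carry the largest differences between values above the background, in opposite directions, and Foxd3 holds the only match described below. Each is the 250 bases before the start site, on the plus strand, at chr10:76253586-76253835 for S100b, chr6:22875252-22875501 for Ptprz1 and chr4:99656049-99656298 for Foxd3. Capitals mark a match to a searched motif.
S100b: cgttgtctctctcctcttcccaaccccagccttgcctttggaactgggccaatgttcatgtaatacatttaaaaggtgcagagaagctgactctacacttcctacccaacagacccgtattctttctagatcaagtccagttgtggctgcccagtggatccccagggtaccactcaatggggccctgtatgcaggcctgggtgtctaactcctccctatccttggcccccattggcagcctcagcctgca
Ptprz1: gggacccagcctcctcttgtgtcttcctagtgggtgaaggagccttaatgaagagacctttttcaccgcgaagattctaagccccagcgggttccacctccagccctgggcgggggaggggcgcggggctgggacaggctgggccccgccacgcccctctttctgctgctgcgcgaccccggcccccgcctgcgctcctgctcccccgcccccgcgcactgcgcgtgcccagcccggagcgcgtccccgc
Foxd3: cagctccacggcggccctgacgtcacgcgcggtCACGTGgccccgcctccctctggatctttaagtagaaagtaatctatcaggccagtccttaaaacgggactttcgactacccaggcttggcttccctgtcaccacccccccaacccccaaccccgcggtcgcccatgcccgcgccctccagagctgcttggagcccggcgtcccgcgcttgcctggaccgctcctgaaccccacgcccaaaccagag

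The motifs searched on both strands were AACAAT and ACAAAG (SOX-type), CATGTG and CACGTG (E-box), TGACTCA (AP-1) and ACATTCC (TEAD-type). Foxd3 held CACGTG at bases -217 to -212 from the start site, and no other motif was matched in the 8 promoter windows of the 5 genes, of which Pmp22 has 4. Of 32851 promoter windows of the same length, 6.02% held CACGTG, 9.42% AACAAT, 16.5% ACAAAG, 12.3% CATGTG, 4.46% TGACTCA and 3.25% ACATTCC. A match describes the letters alone. The Ptprz1 window was 71.6% G and C, that of Foxd3 65.6% and that of S100b 53.6%.

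S100b, Erbb3 and Lgi4 were higher at both later days than at day 6, Ptprz1 was lower at day 28 than at either earlier day, and Mbp was lowest at day 28. Foxd3 and Fabp7 were higher at the later days by less than 2-fold, and Pmp22 was nearly level. For day 28 against day 6, 3 of the 8 genes passed 2-fold upward and 2 downward, where 6.6% of 11628 genes were higher and 4.01% lower. The median log2 difference of the 8 was 0.76, against 0.01 over all genes. The 8 genes were chosen with earlier results of these arrays known, so these counts describe them and single out nothing.

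**Figure D1:**
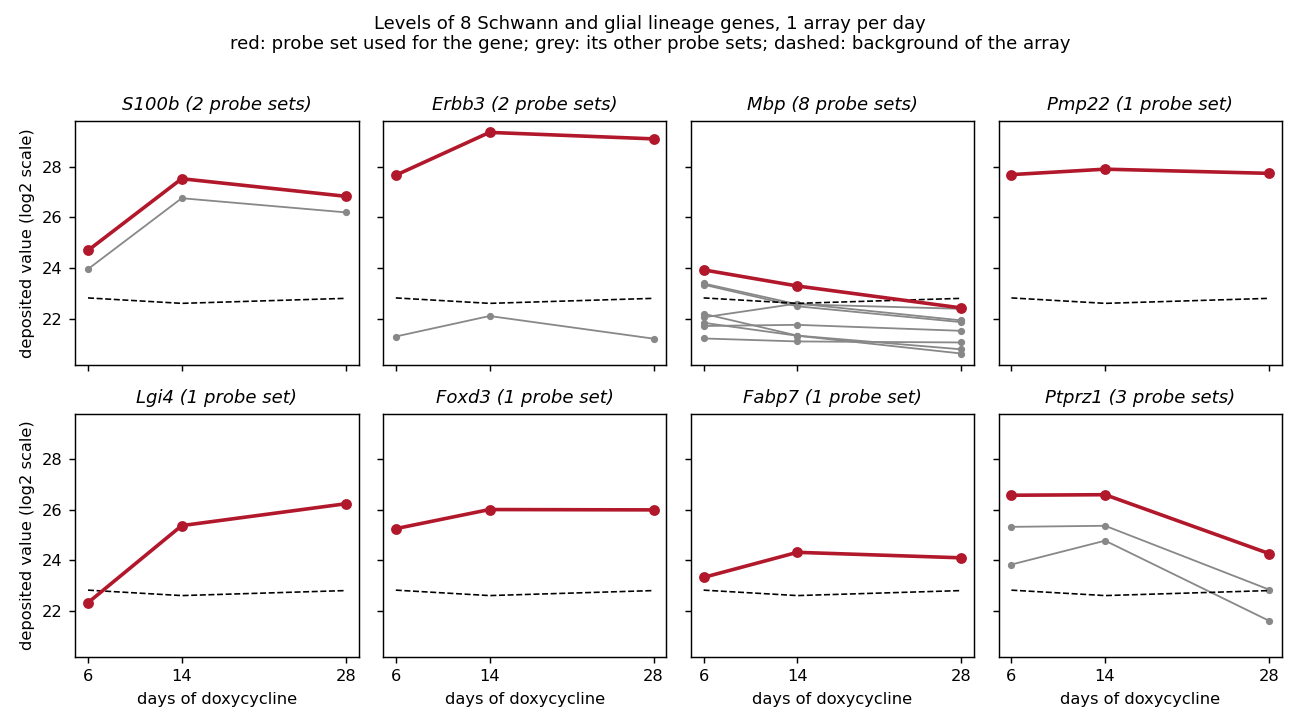
Deposited value on the log2 scale (vertical) against days of doxycycline (horizontal) for each of the 8 genes, with 1 array per day. Red points are the probe set used for the gene, grey points its other probe sets, and the dashed line is the background of each array. S100b, Erbb3 and Lgi4 lie higher at days 14 and 28 than at day 6, and the 3 Ptprz1 probe sets are each lowest at day 28.

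Among the signalling genes, S100b encodes a calcium-binding protein used as a Schwann cell, glial and melanoma marker. Its main probe set read 24.70 at day 6, 27.52 at day 14 and 26.83 at day 28. Day 6 was far below both later days, and day 28 lay between the others. Relative to day 6, the gene was 7.09-fold higher at day 14 and 4.38-fold higher at day 28. In the second step, from day 14 to day 28, it was 1.62-fold lower. The other probe set read 23.96, 26.75 and 26.20 and gave log2 differences of 2.79 and -0.56 for the 2 steps, beside 2.83 and -0.69 for the main one. Both S100b probe sets thus gave the same order of days. Among the 11734 genes compared between days 14 and 6, 47 were as far higher as S100b or farther, S100b included.

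Lgi4 encodes a secreted protein that Schwann cells make and that is needed for myelination through the receptor ADAM22. Its only probe set read 22.33 at day 6, 25.37 at day 14 and 26.23 at day 28. Day 6 was below the background, and both later days were well above it. Against that background, Lgi4 was at least 5.83-fold higher at day 14 and at least 10.6-fold higher at day 28. As measured, 26 genes of 11628 were as far higher between days 28 and 6 or farther, Lgi4 included. The second step added a log2 difference of 0.86, which is 1.82-fold and under the 2-fold limit. Of the 8 genes, Lgi4 was the only one with a higher value at day 28 than at day 14.

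Erbb3 encodes the neuregulin receptor that binds ligand but has little kinase activity of its own. Its main probe set read 27.66 at day 6, 29.35 at day 14 and 29.09 at day 28, so the 2 later days were close together and above day 6. Erbb3 was 3.22-fold higher at day 14 and 2.70-fold higher at day 28, both against day 6, and 1.19-fold lower at day 28 than at day 14. Its other probe set lay below the background on all arrays (21.31, 22.11 and 21.22) and does not measure the gene here. With the probe sets averaged, the log2 difference of Erbb3 for day 28 against day 6 was 0.67, under the 2-fold limit.

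Ptprz1 encodes a receptor-type tyrosine phosphatase of glial precursors that binds pleiotrophin, midkine and contactin-1. Its main probe set read 26.57 at day 6, 26.59 at day 14 and 24.27 at day 28. The first 2 arrays were level, and day 28 was far lower. Ptprz1 was 4.99-fold lower at day 28 than at day 14 and 4.92-fold lower than at day 6. In the second step only 6 of 11727 genes were as far lower or farther, Ptprz1 included. The other probe sets read 25.32, 25.36 and 22.85, and 23.83, 24.78 and 21.62, in order of time. All 3 were lower in the second step. The log2 difference was -2.32 on the main probe set and -2.51 on the next, which lay just above the background at day 28. The dimmest was below the background at day 28, so its difference is a bound of -1.97 on the log2 scale. They disagreed on the step before it, with 0.02, 0.04 and 0.94 for day 14 against day 6.

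The myelin genes had other patterns than S100b. Pmp22, a membrane protein gene of compact myelin whose duplication causes a Charcot-Marie-Tooth neuropathy, read 27.68, 27.90 and 27.73 in order of time on its only probe set. The 3 arrays were nearly level, with log2 differences from day 6 of 0.21 at day 14 and 0.05 at day 28, both within the SD between probe sets. Mbp encodes a protein that holds the layers of myelin together, and the same gene also yields the golli proteins, which are made outside myelin. Its main probe set read 23.93 at day 6, 23.30 at day 14 and 22.43 at day 28, so it came closer to the background with time and was below it on the last array. Mbp was 1.55-fold lower at day 14 than at day 6 and at least 2.18-fold lower at day 28 than at day 6. Of its 8 probe sets, 3 lay above the background on at least 1 array and none did so on all 3. The probe sets other than the main one that were above it at day 6 were also lower at day 28, where they lay below the background. Their log2 bounds against it for day 28 against day 6 were only -0.54 and -0.59. With the 8 averaged, Mbp was not above the background and had no difference.

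Foxd3 encodes a transcription factor of neural crest cells and Schwann cell precursors that is known to hold back Mitf in the crest. It read 25.25 at day 6, 26.00 at day 14 and 25.99 at day 28, so the later arrays were alike and above the earliest. The fold over day 6 was 1.69 at day 14 and 1.67 at day 28. Fabp7, the gene of a fatty acid binding protein of radial glia and Schwann cell precursors, read 23.33, 24.32 and 24.10. All 3 were within 2 log2 units of the background. Its fold was 1.98 for day 14 against day 6, just inside the 2-fold limit, and 1.71 for day 28 against day 6. Each of these genes has 1 probe set, so no second reading on the array stands beside it.

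For day 14 against day 6, 3 of the 8 genes (S100b, Lgi4 and Erbb3) were 2-fold higher and 0 lower, where 5.49% of 11734 genes were higher and 3.88% lower. The median of the 8 was 0.87, against -0.03 over all genes. After a shift that equalizes the hybridization controls, the 644 higher and 455 lower genes of this comparison became 554 and 619, and the counts of the 8 genes were the same 3 and 0. For day 28 against day 14, 0 of the 8 were higher and 1, Ptprz1, was lower, where 2.19% of 11727 genes were higher and 1.45% lower. The median of the 8 was -0.24 there, against 0.03 over all genes. The comparisons share arrays, so an error of the day 6 array enters both differences from it, and an error of the day 14 array enters both steps with opposite signs.

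**Figure D2:**
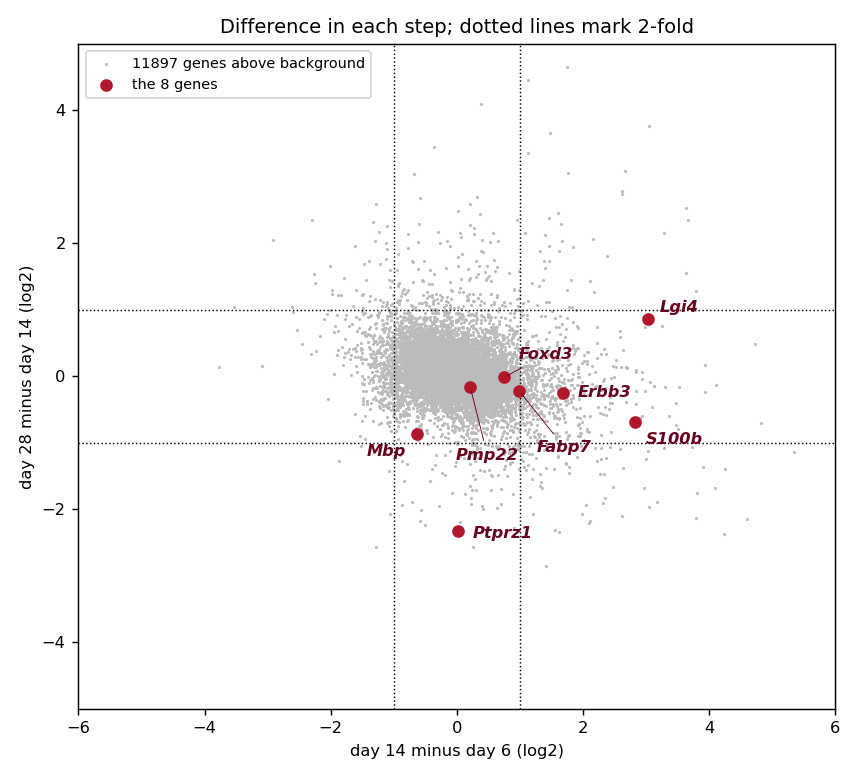
Log2 difference from day 6 to day 14 (horizontal) against that from day 14 to day 28 (vertical) for 11897 genes above the background on at least 1 array (grey) and the 8 genes (red). Dotted lines mark 2-fold. Lgi4, S100b and Erbb3 lie to the right of the line in the first step, and Ptprz1 alone among the 8 lies beyond the line in the second, at -2.32.

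Genes with the most similar pair of steps were found by the distance between the 2 log2 differences, over 3 arrays and 11897 genes. The nearest to S100b were Aatk, at steps of 2.77 and -0.70, and Shisa2, at 2.90 and -0.62. Both lay below the background at day 6. Those nearest to Lgi4 were Abca8a, at 2.98 and 0.75, and Chl1, at 3.25 and 0.77. Chl1 read 21.81 at day 6, 25.06 at day 14 and 25.82 at day 28, so it too was below the background at first. Few genes were this close, with 3 within a distance of 0.25 of S100b and 2 within it of Lgi4. For Ptprz1 the count was 1, Slc7a2, at steps of 0.05 and -2.20, and the next nearest was Bnc2 at 0.26 and -2.57. Both lay below the background at day 28. Nearest to Erbb3 were Syt7 and Lifr, with 50 genes within 0.25, and nearest to Mbp were Mest and Stil, with 16. The patterns of the other 3 were common. Within 0.25 of Fabp7 lay 291 genes, with Kif1b and Pknox2 nearest. Foxd3 had 551, with Trim13 and Vkorc1 nearest, and Pmp22 had 1769, with Cggbp1 and Fam193a nearest.

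The list of other Schwann and glial genes held 26 genes, of which 23 were matched on the array and 10 exceeded the background in each pair of arrays. For day 28 against day 6, 3 of the 10 were 2-fold higher and 0 lower, with a median of 0.74. The same counts held for day 14 against day 6, also with a median of 0.74. Cdh19, a cadherin gene of Schwann cell precursors, read 25.62, 28.20 and 27.11. It had the same order of days as S100b, 5.98-fold higher at day 14 than at day 6 and 2.13-fold lower at day 28 than at day 14. Pou3f1, a transcription factor gene of Schwann cells about to form myelin, read 22.82, 24.75 and 24.75, and its fold at day 14 over day 6 was at least 3.81. Aqp4, an astrocyte water channel gene, read 21.05, 23.34 and 23.07, and its bounds against the background were 1.43-fold at day 14 and 1.19-fold at day 28.

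Sox10 read 27.62, 28.34 and 28.50. Its differences from day 6 were 0.72 at day 14 and 0.87 at day 28, under the 2-fold limit, and its 3 probe sets gave 0.50 to 0.72 and 0.55 to 0.87. Genes known from myelin were split. Cnp, which encodes an enzyme of myelin-forming cells that many other cells also make, read 27.37, 28.30 and 28.22, with a difference of 0.93 for day 14 against day 6, just inside the 2-fold limit. Pllp, a myelin membrane protein gene, read 23.39, 24.09 and 23.68. Mag, Mog, Mobp and Gjb1 lay below the background on all arrays, as did Olig1 and Olig2 of oligodendrocytes and Gfap, Slc1a3 and Aldh1l1 of astrocytes, whereas Aqp4 was above it on 2. Ngfr, the neurotrophin receptor gene of immature and repair Schwann cells, was also below it on all 3. Egr2, the factor that switches on myelin genes, lay at 22.33, 22.96 and 22.97, near the background on each array.

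The neuregulin and ErbB list differed little between days beside Erbb3. Of 13 genes compared, 0 were 2-fold higher and 1 lower for day 28 against day 6, with a median of 0.20. The lower gene was Nrg1, which encodes the main ligand for Schwann cells. It read 23.12 at day 6 and was below the background at day 14 (21.95) and day 28 (21.44), with bounds of only 1.42-fold and 1.24-fold. Erbb2, the gene of the kinase partner of ERBB3, read 25.01, 25.52 and 25.65, a 1.56-fold difference between days 28 and 6. Egfr read 24.16, 24.16 and 24.26 on its main probe set, while its probe sets above the background gave 0.00 to 1.44 for day 28 against day 6. Erbb4, the other neuregulin receptor gene, was below the background throughout.

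Of the other LGI ligand genes and the ADAM receptor genes, 4 of 6 were compared, and 3 were 2-fold higher at day 28 than at day 6. Lgi3 read 22.65, 23.57 and 24.57, at least 3.36-fold higher at day 28 than at day 6, although its 3 probe sets ranged from 0.95 to 1.93. Adam11 read 22.64, 23.93 and 24.17, with a fold of at least 2.53 over the same span. Adam23 read 23.41, 24.70 and 24.82 and was 2.67-fold higher, with its other probe set above the background at 0.51. Adam22, the receptor gene through which LGI4 acts on Schwann cells, read 22.72, 22.93 and 23.17. It stayed near the background, and its bound for day 28 against day 6 was 1.27-fold.

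Ligands and partners of PTPRZ1 gave 2 genes higher and 1 lower among 9 compared for day 28 against day 6, with a median of 0.20. The growth factor genes Ptn (22.57, 22.15 and 22.53) and Mdk (21.71, 21.45 and 21.51) were below the background on all arrays. Cntn1, the contactin-1 gene, lay above it on all arrays but close to it (23.46, 23.17 and 23.21). Its probe sets disagreed, from -0.29 to 2.79 for day 14 against day 6 and from -2.42 to 0.04 in the second step. Ncam1, a cell adhesion gene, read 26.46, 28.01 and 28.01, which made it 2.91-fold higher at day 14 over day 6, with 6 probe sets ranging from 0.18 to 1.54. Sdc3, a heparan sulfate proteoglycan gene, read 26.52, 27.23 and 28.31, 3.47-fold higher at day 28 than at day 6, with probe sets from 0.39 to 1.80. Ptprg, the gene of the closest related phosphatase, read 27.05, 26.26 and 25.85. It was 2.30-fold lower at day 28 than at day 6, with 4 probe sets from -1.25 to -0.56, so not all passed 2-fold. Its difference was -0.79 for day 14 against day 6 and -0.41 in the second step, where that of Ptprz1 was 0.02 and -2.32.

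Among 11 neural crest transcription factors, 8 were compared, and 2 were 2-fold higher at day 28 than at day 6. Mitf, the master regulator of melanocytes, read 23.67, 26.10 and 25.80, which is 5.40-fold and 4.38-fold higher than day 6 at days 14 and 28, from 1 of its 2 probe sets. Sox9, a factor of crest and glia, read 23.82, 24.07 and 25.01, with a 2.28-fold difference between days 28 and 6. Pax3 (27.49, 27.55 and 27.58) was nearly level beside Foxd3.

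**Figure D3:**
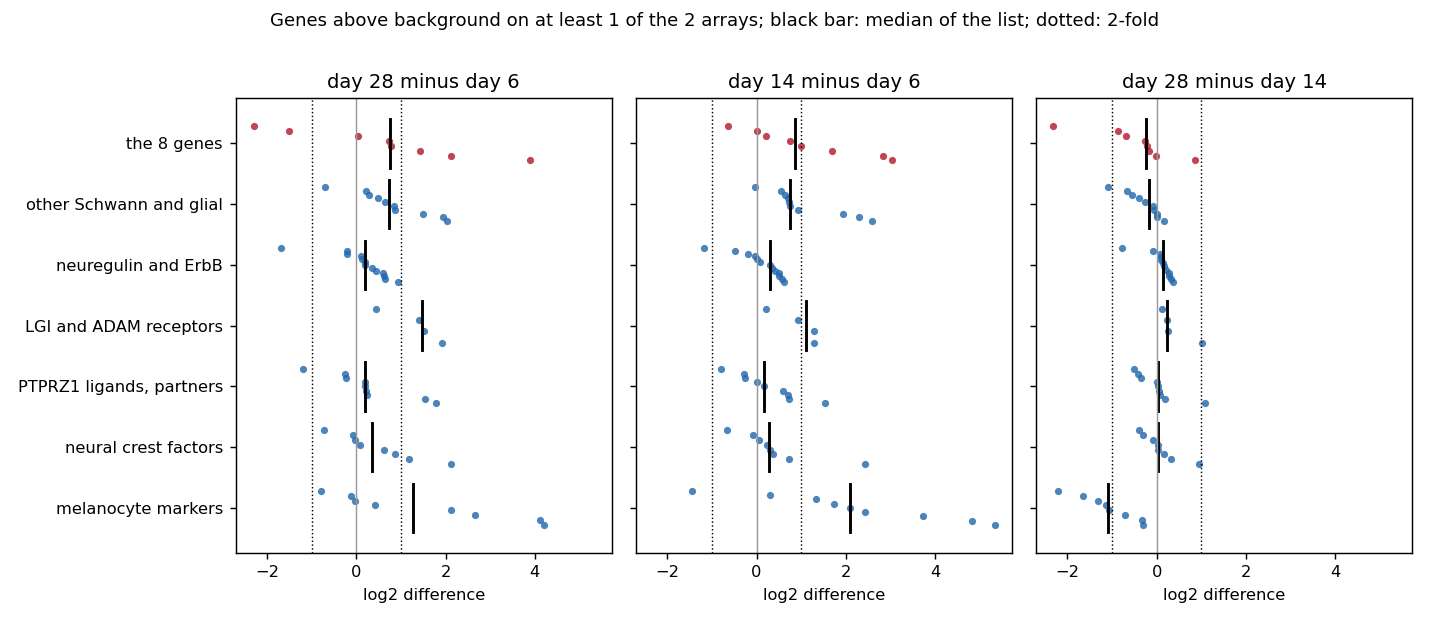
Log2 difference (horizontal) in each comparison for the 8 genes (red) and for the genes of 6 lists (blue), restricted to genes above the background on either array, with the black bar at the median of the list. Dotted lines mark 2-fold. The medians of the 8 genes and of the other Schwann and glial genes are 0.76 and 0.74 for day 28 minus day 6, and the melanocyte markers lie at 1.27.

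Most melanocyte markers compared differed in the same directions as S100b and Erbb3 in each step. For day 14 against day 6, 7 of 9 compared were 2-fold higher and 1, Ednrb, was lower, with a median of 2.10. For day 28 against day 14, 0 of 8 were higher and 5 lower, with a median of -1.10. The 7 and the 5 include Oca2 (21.41, 22.73 and 21.09), above the background at day 14 alone and by too little to give a bound. Ednrb read 23.28, 21.83 and 22.50, at least 1.59-fold lower at day 14 than at day 6, and Pmel differed by 0.31. For day 28 against day 6, 4 of 8 were higher and 0 lower, with a median of 1.27. The mean level over all 11 was 23.45, 25.30 and 24.50 in order of time. The folds of Dct (40.6) and Mlana (28.4) at day 14 over day 6 were larger than the 7.09-fold of S100b. Slc45a2, a melanosome transporter gene, read 23.11, 26.84 and 25.77, and Gpr143, a melanosome receptor gene, read 23.64, 25.37 and 24.06. Tyrp1, a pigment enzyme gene, read 27.58, 29.67 and 27.47, so day 28 was back at the level of day 6, which it was not for S100b. The part of melanocyte state in the values of the 8 genes was not tested.

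Markers of other cell types were read for the same reason. Of 8 neuron markers, 2 or 3 lay above the background, with mean levels of 21.98, 21.62 and 21.57, and Snap25, Stmn2, Rbfox3, Elavl4 and Nefm were below it throughout. Syt1 (23.38, 23.04 and 23.66) was above it on all arrays, and Elavl3 (23.32, 22.44 and 23.25) on all but day 14. Tubb3, a tubulin gene that is bright in many dividing cells too, read 27.07, 25.91 and 25.59, which is 2.23-fold lower at day 14 and 2.79-fold lower at day 28, both against day 6. Of 6 macrophage and leukocyte markers, 3 lay above it on each array, with means of 22.61, 22.35 and 22.66, and Ptprc, Aif1 and Fcgr3 were below it throughout. The 3 above it were Csf1r (24.36, 24.32 and 24.04), Adgre1 (23.62, 23.35 and 23.49) and Cd68. Cd68, a lysosomal protein gene high in macrophages, read 25.09, 23.98 and 25.99, lowest at day 14, with a 2.17-fold difference in the first step and a 4.03-fold difference the other way in the second. Of 7 fibroblast markers 4 lay above it on each array, with means of 22.51, 22.87 and 22.83, and Thy1 and Lum were below it. Col1a1 (23.97, 23.39 and 23.60) was above it on all arrays, and Col1a2 (22.99, 22.46 and 22.59) at day 6 alone. Col3a1, a collagen gene, read 25.25, 26.31 and 25.17, which is 2.08-fold higher at day 14 over day 6 and 2.20-fold lower in the second step. Pdgfra, a growth factor receptor gene, read 23.88, 24.26 and 25.50, a 3.06-fold difference between days 28 and 6. Dcn, a proteoglycan gene, read 21.92, 22.61 and 23.05, with a bound of 1.16-fold at day 28 over day 6. Endothelial markers had 1 of 4 above it, Cdh5, which read 23.70, 25.85 and 27.93, an 18.7-fold difference between days 28 and 6, while Pecam1, Kdr and Tek were below it throughout. Of the 4 keratinocyte markers 3 lay above it on all arrays, with means over the 4 of 23.31, 23.03 and 23.33, and Krt14 was below it. The 3 were Krt5 (23.54, 23.57 and 23.70), Krt10 (23.93, 23.80 and 23.95) and Epcam (23.19, 22.87 and 23.58). The part of these markers in the values of the 8 genes was not tested.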

How the data were processed

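Biotin-labelled cRNA was hybridized to 3 arrays, per the labels' protocols. The deposited table holds 1 value for each of 45101 probe sets and array. The summarization method and log base are not given in the sources used here. Sorted, the 3 columns hold identical values, so the authors had quantile normalized them, and differences common to most genes are not visible. Base 2 for these deposited values was inferred from hybridization controls (slopes of 0.77 to 0.80 per log2 of concentration). Those slopes are below that of a log2 signal proportional to concentration, so they do not settle the base. Folds and the 2-fold limit therefore assume base 2 and an added constant (median 22.91). The precision is limited by the number of arrays.

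Platform annotation gave 1 gene for 34958 probe sets, several for 932 and none here for 9211. The 8 genes, the lists (194 of 205 entries matched, the silent genes by 59 of 66) and the rules were chosen with earlier results of these data known. Named were all members, list genes 2-fold apart (up to the 6 farthest per list), fixed ligands and receptors, and the 2 nearest genes per member. Where the dimmer array was at or below the background, the fold is a bound against it; counts and medians used values as measured. The alternatives varied the probe set, background, dim values, scaling and fold. Steps were tested on simulated data copied from the day 6 array, with the same shift on all probe sets of a gene. Only genes well above the background were shifted, so the simulation does not cover dim genes or genes whose probe sets disagree. Python 3.11.15, numpy 2.4.6 and pandas 2.3.3 were used.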

Additional observations from a re-analysis of the deposited data

How the results depend on the processing

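The count of the 8 genes at least 2-fold apart was 5 over the whole span, 3 in the step from day 6 to day 14 and 1 in the step from day 14 to day 28. It kept these values under 5 of the alternatives. With probe sets averaged it was 3 for day 28 against day 6, because Erbb3 dropped below the limit and Mbp below the background. At 1.5-fold the counts were 7, 6 and 4, but many more of all genes pass that limit too. Over the whole span 1839 of 11628 genes were 1.5-fold higher and 1419 lower. In the first step 1584 of 11734 were higher and 1666 lower, and in the second 886 of 11727 and 516. The 18 alternative medians stayed within the SD between probe sets. Among differences of single genes under the alternatives, 131 moved by less than that SD and 9 by more, and 0 of those past 2-fold changed sign. No paired analysis was possible because each time point has 1 array. Signal close to the background limits Mbp, Lgi4 at day 6 and Fabp7.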

Other observations

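Relatives of S100b on the array did not follow its pattern. Of 7 other S100 genes compared for day 14 against day 6, 0 were 2-fold higher and 3 lower, with a median of -0.82, where S100b was 7.09-fold higher. S100a6 read 25.23, 24.12 and 26.03 in order of time, 2.16-fold lower at day 14 than at day 6 and 3.77-fold higher at day 28 than at day 14, so it was lowest on the array where S100b was highest. S100a10 (29.07, 28.06 and 28.57) and S100a3 (23.65, 21.64 and 23.30) were also lowest at day 14, the latter below the background there. S100a8 was above the background at day 28 alone (24.49), at least 3.68-fold higher than at day 14. Ager, the gene of a receptor for S100 proteins, was below the background on all arrays.

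Among relatives of Fabp7, Fabp4, the gene of the fat cell form, read 23.55, 22.45 and 24.71, a fold of at least 4.29 at day 28 over day 14, the step in which Fabp7 differed by -0.22. Fabp5 read 29.32, 29.58 and 28.89. Fabp1, Fabp2 and Fabp6 were below the background throughout.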
